A study of Mus musculus with 5 samples.

Results

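The mouse reference genome used by the submitters holds, beside the numbered, sex and mitochondrial chromosomes, shorter sequences that are not built into any of them, and 141 such sequences were listed in the sperm methylation calls. They were chosen by name alone, as every sequence other than the chromosomes and the mitochondrial genome. Of these, 75 held at least 1 CpG read 10 or more times in all 5 libraries, here called a common CpG, and the other 66 names held none and are not described further. The 75 sequences carried 5970 common CpGs, out of 991032 common CpGs in the whole series. The working label for the set was unplaced and unlocalised sequences, but the names do not say so: 116 of the 141 begin with NT_ and 25 with NW_, and which are unplaced, unlocalised, alternate or patch sequences was not given in the sources used here. They are therefore called outside sequences.

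Unassembled stretches of the mouse genome are rich in repeats. The major satellite, a short unit repeated head to tail, fills the pericentromeric heterochromatin next to the centromeres, and only scattered copies of it stand in the assembly, so that reads from many copies can align to a few places. Most CpGs of mouse sperm are highly methylated, and methylation of satellite DNA is set during germ cell development and is known to differ between germ cells and somatic tissue.

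The samples were genomic DNA of C57BL/6 sperm collected by swim-out from the cauda epididymis, the site of sperm storage at the end of the epididymal duct, and it was measured by whole-genome bisulfite sequencing. There were 2 libraries from mice aged 18 months, old replicates 1 and 2, and 3 from mice aged 2 months, young replicates 1 to 3. No other treatment or genotype was labelled. Whether the libraries stem from different animals is not in the labels, and all p-values therefore reflect just the variation among these 5 libraries, which may be technical. Reads over listed CpG cytosines summed to between 67774094 and 97769462 per library. The sperm label could be checked at few places: of 12 maternally imprinted gene starts, which are unmethylated in pure mature sperm, 3 had 10 or more reads in every library. Peg10 and Peg13 were not among the annotated starts used and were not looked up. Where a gene had several measured starts, the one with the lowest mean methylation was taken, which favours a sperm-like value. Peg3 stood at 33.8% and 24.6% in old and 41.6%, 11.3% and 51.0% in young libraries, and Nnat at 38.2% and 23.1% in old and 8.48%, 0% and 30.7% in young libraries. Snrpn, with as few as 13 reads, stood at 72.4% and 72.7% in old and 82.6%, 46.2% and 57.1% in young libraries. Young replicate 2 was the lowest library at all 3, and its Nnat value, 0 of 147 reads, was the only one at 0. It allows up to 2.04% if the reads were independent. Reads were summed over CpGs within 500 bp of a start, so 1 fragment can count several times and the limit can be higher. Of 2 measured germline gene starts, which are methylated in somatic cells, Ddx4 stood between 72.9% and 92.2% in single libraries. Tdrd1 stood between 0% and 32.4%. The check thus did not settle the label and differed by library.

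The outside sequences took far more reads per CpG than the chromosomes. A common outside CpG had a mean of 448 and 398 reads in old replicates 1 and 2, against 438, 426 and 452 in young replicates 1 to 3, while a common autosomal CpG had a mean of 44.7 and 39.2 reads in old and 39.0, 38.8 and 49.5 in young replicates. Coverage is given below relative to that autosomal mean of the same library. That mean is over common CpGs only, whereas listed cytosines, counted by strand, had a median of 6 or 7 reads in a library. A value near 1 is therefore not the depth of an ordinary autosomal CpG. A minimum of 10 reads kept 37.4% of the CpGs listed on outside sequences and 7.54% of those listed on chromosomes. The reads were unevenly spread: NT_187064.1 and NT_039257.4 together held between 89.2% and 92.5% of the reads on common outside CpGs of a library. The other 24 sequences with at least 20 common CpGs had between 0.47 and 2.86 times the autosomal mean, with a median of 0.94, and 4 of them were over 1.5 times and 6 under 0.75 times.

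Outside CpGs were far less methylated than those of the chromosomes in every library. The mean over the 5970 CpGs was 62.2% and 62.0% in old replicates 1 and 2, against 59.7%, 57.7% and 65.3% in young replicates 1 to 3. Over the chromosomes the means were 88.9% and 88.8% in old and 88.8%, 88.9% and 88.1% in young libraries. The outside CpGs were thus below the chromosomes by 22.8 to 31.3 points in each of the 5 libraries. The mean difference, outside minus chromosomes, was -27.3 points (two-sided exact sign-flip test over 5 libraries, p = 0.0625, the smallest p that 5 libraries allow). Its size depended on the averaging, at -35.0 points when reads were pooled and -15.1 points when each sequence counted once. Leaving out NT_187064.1 and NT_039257.4, the other 3923 CpGs had means of 66.6% and 65.9% in old and 63.6%, 61.1% and 68.7% in young libraries.

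Outside CpGs were more often of intermediate methylation than those of the chromosomes, and also more often of low methylation. Between 20% and 80% methylated were 65.1% and 68.1% of the outside CpGs in old libraries and 67.3%, 64.0% and 69.1% in young ones, against 13.0% to 16.7% of the CpGs of the chromosomes. Over 80% methylated were 29.4% and 27.1% of the outside CpGs in old libraries and 26.1%, 25.7% and 27.6% in young ones, against 82.0% to 84.9% on the chromosomes. Under 20% were 5.51% and 4.77% in old libraries and 6.60%, 10.3% and 3.35% in young ones, against 1.31% to 2.16% on the chromosomes. Among the chromosomes, only the Y came near the outside CpGs in mean methylation, at 60.8%, and in the share of common CpGs between the limits, at 78.7%. The next lowest in methylation, the X, had 85.2%. The level of a single outside CpG was similar from library to library, with a Pearson r between pairs of libraries of 0.89 to 0.93 over the 5970 CpGs, which share sequences and reads and are not independent.

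**Figure D1:**
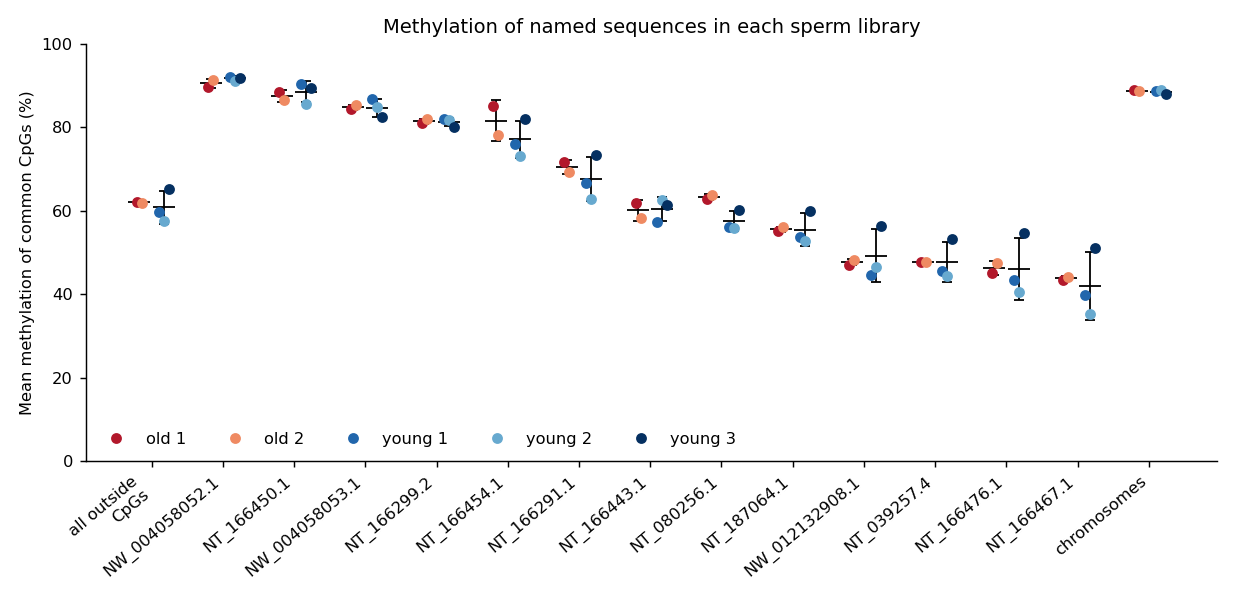
Mean methylation (%, vertical axis) of common CpGs on all outside sequences, on 13 named outside sequences and on the chromosomes; points are libraries (old red and orange, young blue), bars the mean and SD of each age. The outside mean lies between 57.7% and 65.3% and that of the chromosomes between 88.1% and 88.9%, and young replicate 3 is the highest library on most of the less methylated sequences.

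The sequences differed widely from each other. Among the 26 sequences with at least 20 common CpGs, the mean over the 5 libraries ran from 42.8% to 91.3%. The most methylated were NW_004058052.1, with 30 CpGs at 89.8% and 91.3% in old and 92.2%, 91.2% and 91.9% in young libraries, NT_166450.1, with 20 CpGs at 88.6% and 86.6% in old and 90.4%, 85.7% and 89.5% in young libraries, and NW_004058053.1, with 28 CpGs at 84.4% and 85.3% in old and 86.7%, 84.9% and 82.4% in young libraries. NW_004058053.1, with a mean of 84.7% over the 5 libraries, was just below the X chromosome, at 85.2%, and below all autosomes, and 10.7% of its CpGs were under 20% methylated. The least methylated were NT_166467.1, with 470 CpGs at 43.4% and 44.2% in old and 39.7%, 35.3% and 51.2% in young libraries, NT_166476.1, with 295 CpGs at 45.1% and 47.6% in old and 43.3%, 40.4% and 54.6% in young libraries, and NT_039257.4, described below. On each of these 3 both old libraries lay between the lowest and the highest young library. NT_166299.2, with 312 common CpGs over positions 12984 to 1110520, stood at 81.1% and 81.9% in old and 82.0%, 81.9% and 80.2% in young libraries, below the X and all autosomes. Of its CpGs, 74.7% were over 80% methylated, against 76.5% on the X, and 4.17% were under 20%, against at most 2.21% on any chromosome. It had a coverage of 0.956 and 1.03 times the autosomal mean in old and 0.999, 0.958 and 0.999 times in young libraries.

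Positions of common CpGs recurred at a fixed distance on the most covered sequences. Over all outside sequences and distances from 100 to 1000 bp, the most frequent distance between 2 common CpGs was 234 bp, with 756 pairs, followed by 701 bp with 536 pairs and 467 bp with 497 pairs, which are close to multiples of it. A unit of 234 bp is the known length of the mouse major satellite. The letters of these sequences were not used here, so their identity as satellite was not tested. Another common CpG lay 234 bp away, within 1 bp, for 86.0% of the 394 common CpGs of NT_039257.4 and 56.8% of the 1653 of NT_187064.1. At 4 other distances 15 or 30 bp shorter or longer, the mean share was 28.4% and 17.9% on the same sequences. On the chromosomes the share at 234 bp had a median of 1.76% and reached at most 3.16%.

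**Figure D2:**
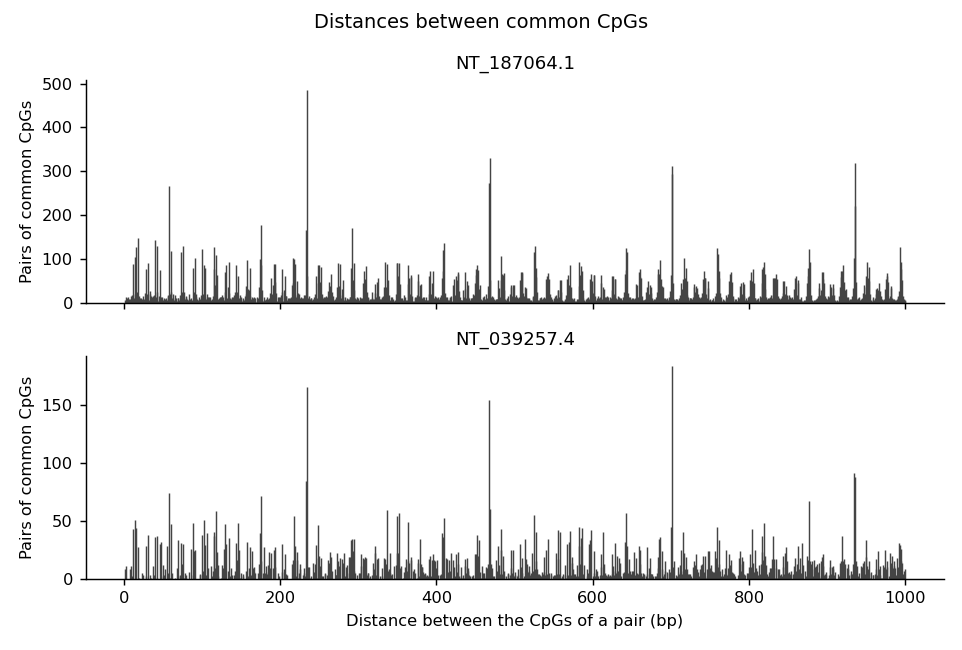
Number of pairs of common CpGs (vertical axis) at each distance from 1 to 1000 bp (horizontal axis) on NT_187064.1 (above) and NT_039257.4 (below). Peaks stand at 234 bp and near its multiples, such as 467 and 701 bp, on both sequences.

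NT_187064.1 had 2 parts. Its first 684 common CpGs, at positions 162 to 69962, stood at 66.4% and 66.7% methylation in old and 65.8%, 65.2% and 67.1% in young libraries, with 6.57 and 7.65 times the autosomal coverage in old and 7.71, 7.77 and 6.83 times in young libraries. The remaining 969 CpGs, at positions 70002 to 114437, stood at 47.3% and 48.5% in old and 45.4%, 43.9% and 55.0% in young libraries, with 25.8 and 26.4 times the autosomal coverage in old and 30.3, 29.0 and 23.7 times in young libraries. The start part was the more methylated one and the less covered one in all 5 libraries. Much of its coverage came from its last stretch of 5 kb, whose 86 CpGs had 24.5 and 26.4 times the autosomal coverage in old and 27.6, 29.1 and 23.7 times in young libraries, and of which 45.3% had a neighbour at 234 bp, just under the limit for the array part given below. The other 598 CpGs had 3.99 and 4.94 times in old and 4.84, 4.70 and 4.40 times in young libraries. A neighbour 234 bp away stood beside 88.0% of the CpGs of the array part and 12.4% of those of the start part. The split was set after the last 5-kb stretch in which fewer than 50% of CpGs had such a neighbour, so this contrast of spacing is a description of the split.

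The largest change in methylation along NT_187064.1 came before the array. Stretches of 5 kb up to position 55000 averaged between 64.8% and 86.2% over the 5 libraries, the highest being the stretch from 50001 to 55000, which also had the lowest coverage, at 1.74 times the autosomal mean. The next stretch, from 55001 to 60000, had the lowest methylation of the sequence, at 37.6%, although only 10.8% of its CpGs had a neighbour at 234 bp. Methylation then rose to 46.4% in the stretch from 60001 and to 58.6% in that from 65001. It fell again to 47.9% in the first stretch of the array part, from 70001. Within the array part, stretches kept to between 46.1% and 49.5% while their coverage ran from 11.2 to 39.4 times the autosomal mean.

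**Figure D3:**
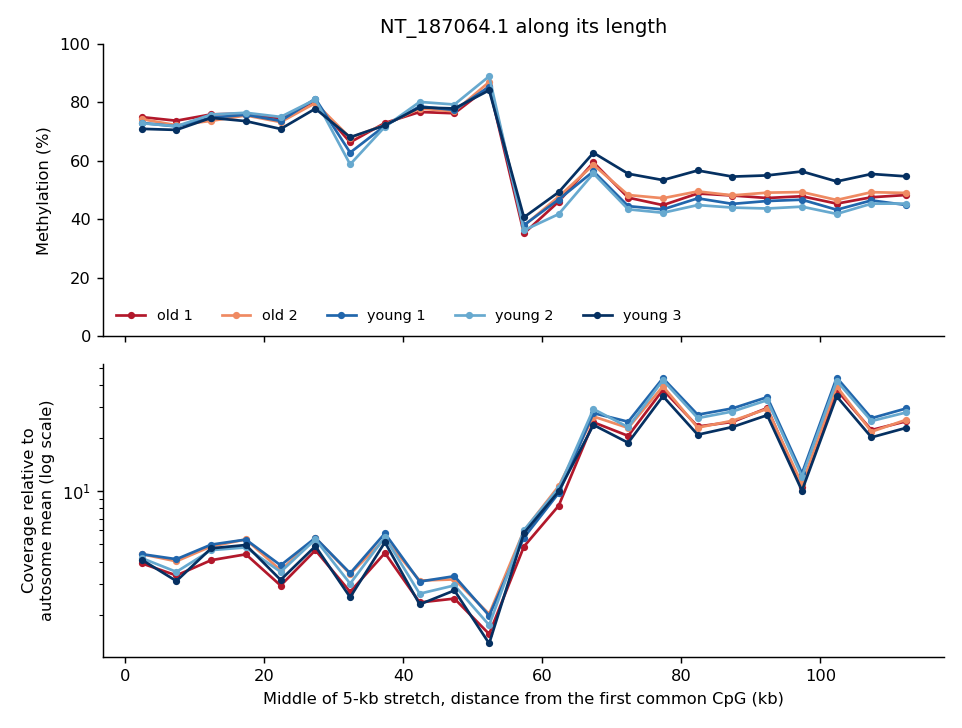
Methylation (%, above) and coverage relative to the autosomal mean (log scale, below) of NT_187064.1 in stretches of 5 kb, by distance from its first common CpG in kb, one line per library. Methylation drops from a mean of 86.2% to 37.6% between neighbouring stretches and rises to 58.6% just before the array. It then stays near 48.0% through the array, where coverage is 11.2 to 39.4 times that of the autosomes.

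NT_039257.4 had common CpGs only at positions 135032 to 148587 and was the most covered sequence. Its coverage was 60.4 and 62.2 times the autosomal mean in old libraries, against 69.5, 68.7 and 54.4 times in young ones, and its methylation was 47.8% and 47.8% in old and 45.5%, 44.4% and 53.3% in young libraries. Both old libraries lay within the range of the young ones on both measures. In stretches of 1 kb the mean coverage ran from 2.91 to 142 times the autosomal mean, while methylation stayed between 41.7% and 51.9%. Of its CpGs, 92.4% were between 20% and 80% methylated and none was over 80%.

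Within both arrays, CpGs at the same place in the unit had nearly the same methylation, and CpGs at different places did not. On the array part of NT_187064.1, 656 pairs of CpGs 233 to 235 bp apart differed by a median of 2.16 points, whereas 588 pairs 130 to 160 bp apart differed by a median of 13.0 points. The Pearson r of methylation was 0.91 over the first set of pairs and -0.26 over the second. It was still 0.85 over pairs 3 units apart, and in single libraries it lay between 0.82 and 0.87 at 1 unit. NT_039257.4 gave 0.85 over 255 pairs at 1 unit and -0.05 over 330 pairs between units. The pairs share CpGs and reads, so these values are descriptions without a test.

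CpGs at that distance were also linked into chains, several of which can belong to the same place in the unit. The array part of NT_187064.1 held 64 chains of at least 5 CpGs, with 511 of its 969 CpGs, the longest of 20. Their means over the 5 libraries ran from 23.1% to 66.0%, with an SD between chains of 13.5 points, and the median SD among the CpGs of a chain was 2.61 points. NT_039257.4 held 20 such chains, with 172 of its 394 CpGs, from 37.7% to 65.1%, with a median SD within a chain of 2.81 points. The SD between its chains was 7.84 points. Its lowest chains, at 37.7% and 44.2%, were mixed, with an SD within the chain of 20.8 and 17.3 points, and the next stood at 48.0%. The lowest chain of NT_187064.1 by its mean over the 5 libraries, at positions 108632 to 109567, had 21.2% and 23.7% in old and 20.9%, 18.3% and 31.5% in young libraries. The highest, at positions 105316 to 106251, had 67.6% and 60.3% in old and 65.2%, 64.9% and 71.9% in young libraries.

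The same kind of stretch stood on chromosomes. Of the stretches of 10 kb on chromosomes with at least 20 common CpGs, 9 had at least 10 times the autosomal coverage. In 5 of them more than 50% of CpGs had a neighbour at 234 bp: the 4 that make up chr9:3000001-3040000 and chr14:19410001-19420000 (GRCm38). The 2 most covered had fewer such CpGs. On chr2:98660001-98670000, at 478 times the autosomal coverage, they made up 29.1% and methylation averaged 52.2%. On chr9:35300001-35310000, at 222 times, they made up 30% of 20 CpGs and methylation averaged 71.7%. The remaining stretches, on chromosomes 15 and 16, had 0% and 16% such CpGs and averaged 72.3% and 82.1%. The stretch chr9:3000001-3040000, below called the chromosome 9 stretch, with 780 CpGs, stood at 46.0% and 47.1% in old and 44.2%, 42.5% and 53.4% in young libraries. The array part of NT_187064.1 was above it by 1.23 to 1.60 points in each of the 5 libraries, and NT_039257.4 differed from it by -0.16 to 1.96 points. The stretch was picked after its values were seen, so no test is given.

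Smaller sequences shared part of this pattern. A rule on positions, set after the values were seen, took those of the 26 sequences on which at least 15% of CpGs had a neighbour at 234 bp and on which this was at least 2 times the share at the other distances. It gave 8 sequences: NT_187064.1, NT_039257.4, NT_166467.1, NT_166473.1, NT_166474.1, NT_166476.1, NT_166477.1 and NT_166480.1. The last 6 had a coverage of 0.81 to 2.10 times the autosomal mean, and shorter distances were among the most frequent ones over 40 bp on them: 58 bp was among the first 4 on all 6, and 233 bp on NT_166473.1 and NT_166477.1. The 3556 CpGs of the 8 sequences stood at 51.8% and 52.5% in old and 49.5%, 47.2% and 57.8% in young libraries, against 77.0% and 75.2% in old and 74.0%, 72.1% and 76.0% in young libraries for the 2168 CpGs of the other 18 sequences. By sequence the 8 ran from 42.8% to 57.4% and the 18 from 48.6% to 91.3%, so that the 2 sets overlapped. A first rule, at least 3 times the share at the other distances, had given 6 sequences, 5 of them among the 8 together with NT_162750.1, with methylation of 55.1% and 55.6% in old and 53.1%, 51.5% and 59.8% in young libraries and a range by sequence of 47.8% to 74.3%. Of the 8, NT_166467.1 was closest to the limit, at 16.4%, and of the 18 NT_166454.1 was closest, at 11.4%.

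Among the 26 sequences with at least 20 common CpGs, these 8 also stood out in the strand that carried the reads. On 7 of the 8 the forward strand held either at most 16.8% or at least 92.5% of the reads over listed cytosines. Its share was 0.12% on NT_166467.1, 0.84% on NT_166473.1, 6.69% on NT_166477.1 and 16.8% on NT_187064.1. It was 92.5% on NT_039257.4, 99.8% on NT_166480.1 and 100% on NT_166474.1, with NT_166476.1 the exception at 72.1%. Of the other 18 sequences the forward share ran from 30.9% to 82.8%. Some smaller sequences without CpGs at 234 bp were as one-sided, such as NT_187056.1, with 7 common CpGs, at 98.9% and NT_187003.1, with 6, at 8.13%. Over all outside sequences the forward strand took 49.4% to 50.7% of reads in each library, so the shares of single sequences offset each other. On those 7 sequences the methylation value thus came mostly from 1 strand.

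**Figure D4:**
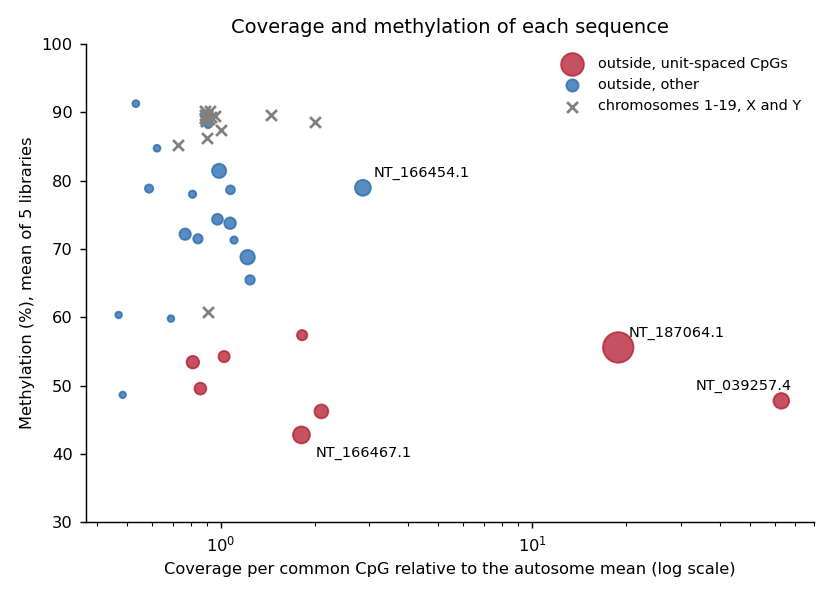
Coverage of common CpGs relative to the autosomal mean (log scale, horizontal axis) against methylation (%, vertical axis), both means of 5 libraries, for the 26 outside sequences with at least 20 common CpGs (circles, area growing with the number of CpGs, red for the 8 that met the 234-bp rule and blue for the other 18) and for the chromosomes (crosses). The 8 stand between 42.8% and 57.4% methylation at coverages from 0.81 to 63.0, and the lowest cross is the Y chromosome at 60.8%.

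The study compared old with young sperm, and mean methylation of the outside CpGs did not differ by more than the spread between libraries. It averaged 62.1% ± 0.191 in old libraries (SD, n = 2) and 60.9% ± 3.96 in young libraries (SD, n = 3), which is 1.21 points more (exact permutation test over 10 splits, two-sided, p = 0.7; the smallest p these groups allow is 0.1). Both old values lay inside the young range. Young replicates 2 and 3 set that range, and without young replicate 2 the difference was -0.40 points. Relative to the chromosomes of the same library the outside CpGs differed between old and young by 0.967 points (exact permutation test, p = 0.8), or by -0.81 points without young replicate 2. The partly methylated share differed by -0.198 points (exact permutation test, p = 1) and had the other sign without old replicate 1, young replicate 1 or young replicate 3, with 1.30, 0.06 and 0.95 points.

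Young replicate 3 was the most methylated and young replicate 2 the least methylated library on all 8 sequences that met the 234-bp rule. Of the other 18 sequences they held these places on 3 and 10. On the array part of NT_187064.1 young replicate 3, the most methylated, also had the lowest relative coverage of the 5 libraries, and young replicate 1, with the highest, was the second lowest in methylation, after young replicate 2. On the chromosome 9 stretch the libraries kept the same order of methylation. Young replicate 2 was also the lowest library at the 3 imprinted gene starts given above and at the 2 measured germline gene starts. It had 72.9% at Ddx4 and 0 of 36 reads at Tdrd1, which allows up to 8.33% if the reads were independent. Young replicate 3 was the highest at Peg3 but at none of the other 4. The part of coverage, or of other cells in a library, in this spread was not tested.

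Outside sequences took a similar share of reads at both ages. Of the reads on common CpGs, 5.77% and 5.85% lay on them in old libraries, against 6.43%, 6.28% and 5.28% in young ones, which differed by -0.190 percentage points (exact permutation test, two-sided, p = 0.8). Both old values fell inside the young range, and without young replicate 1 the difference was 0.03 percentage points. Of the 67 sequences and chromosomes with at least 5 common CpGs tested for their read share with limma, 0% passed an adjusted p of 0.05, and so 0 of the 46 outside sequences did; the smallest adjusted p among these was 0.703. An unadjusted p under 0.05 was reached by 3 outside sequences, NT_166473.1, NT_166438.1 and NT_166443.1, which is also the count over all 67, or 4.48%. The old and young libraries did not overlap on 4 outside sequences with a higher and 4 with a lower share in old, against 8.96% and 5.97% of all 67. Without old replicate 2, the 4 sequences NT_166454.1, NT_187056.1, NT_187003.1 and NT_187023.1 passed, which then rested on old replicate 1 alone.

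NT_166454.1 was the sequence on which a single library stood furthest apart in coverage. It had 411 common CpGs, at positions 475 to 26154, and its coverage was 5.42 and 2.06 times the autosomal mean in old replicates 1 and 2, against 2.11, 2.10 and 2.61 times in young replicates 1 to 3. Old replicate 1 was 2.44 times the mean of the other 4 libraries, and old replicate 2 lay below all young libraries. In 13 stretches of 2 kb its ratio to the mean of the others ran from 1.76 to 3.07, and it was the most covered library at 410 of the 411 CpGs. No other library departed from the median of the remaining 4 by more than 2 times on any of the 46 outside sequences. Of 2522 stretches of 10 kb on chromosomes with at least 20 common CpGs, 0 were more than 2 times above that median in old replicate 1 and 1 was more than 2 times below it. In the other libraries 0 to 3 stretches were that far above and 0 to 8 that far below.

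Methylation of NT_166454.1 was 85.1% and 78.2% in old replicates 1 and 2, against 76.1%, 73.3% and 82.0% in young replicates 1 to 3. Old replicate 1 and young replicate 3 were the most methylated libraries, as they were the most covered ones, and old replicate 2 lay inside the young range. The log2 fold change of the read share, old over young, was 0.57 ± 0.41 (SE; limma adjusted p = 0.780), and the methylation difference was 4.52 points (quasi-binomial model with limma's moderated dispersion, adjusted p = 0.819). Without old replicate 1 the methylation difference was 1.05 points. Old replicate 1 had the highest methylation in 12 of the 13 stretches and at 210 of the 411 CpGs. Whether the extra reads carry the higher methylation was not tested.

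**Figure D5:**
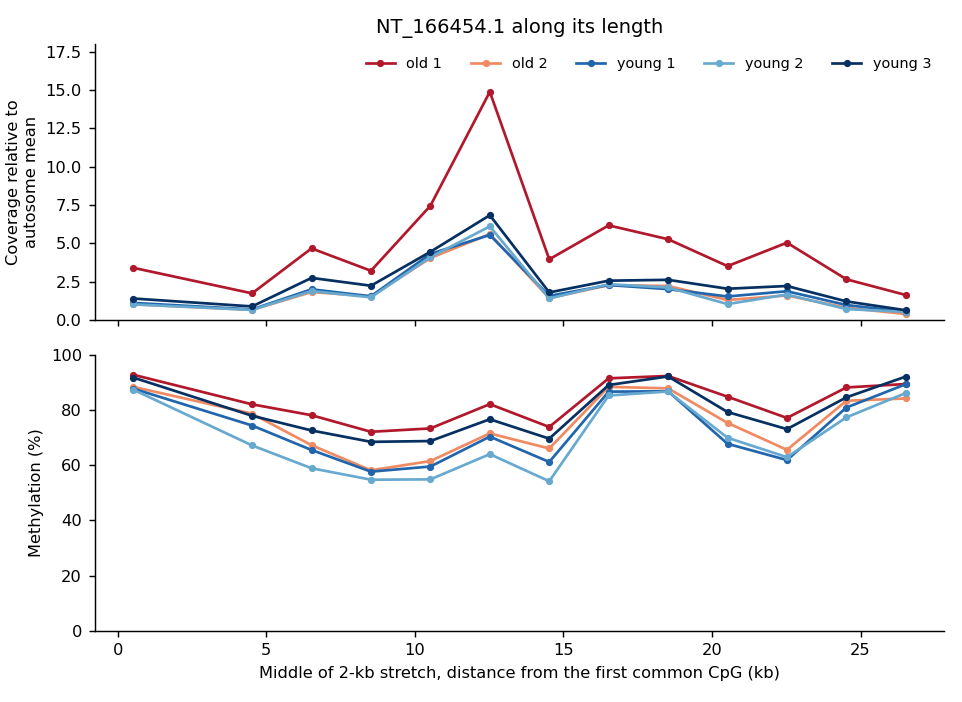
Coverage relative to the autosomal mean (above) and methylation (%, below) of NT_166454.1 in stretches of 2 kb, by distance from its first common CpG in kb, one line per library. Old replicate 1 has the highest coverage in all 13 stretches, at 1.76 to 3.07 times the mean of the others, and the highest methylation in 12 of them.

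By sequence, 0% of the 67 sequences and chromosomes passed an adjusted p of 0.05 for methylation in the quasi-binomial model, and so 0 of the 46 outside sequences did. An unadjusted p under 0.05 was reached by 1 outside sequence, NT_187056.1, against 1.49% of all 67. In limma on log2 odds 0 of the 46 passed and 4 had an unadjusted p under 0.05, against 5.97% of all 67, the smallest adjusted p being 0.0903. Old libraries had the higher mean on 35 of the 46 outside sequences and on 20 of the 21 chromosomes with X and Y. The ages did not overlap on 11 outside sequences that were higher and 1 that was lower in old sperm, against 19.4% and 1.49% of all 67, of which these sequences are the larger part. The 46 sequences were read in the same 5 libraries, so the count is not 46 separate observations. Young replicate 2 was the lowest library on 22 of the 46 and on 2 of the 21 chromosomes.

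NT_080256.1 had the largest mean difference among sequences with at least 20 common CpGs. Its 23 CpGs stood at 62.8% and 63.8% in old and 56.2%, 56.0% and 60.3% in young libraries. Both old libraries were above all young ones, and the difference was 5.80 points (quasi-binomial model with limma's moderated dispersion, adjusted p = 0.819). NT_166291.1, with 328 CpGs, stood at 71.7% and 69.4% in old and 66.8%, 62.7% and 73.3% in young libraries, and here young replicate 3 was above both old libraries. On the side of lower means in old sperm, NW_012132908.1, with 20 CpGs, stood at 47.1% and 48.1% in old and 44.7%, 46.7% and 56.5% in young libraries, where young replicate 3 was above both old libraries. The difference was -1.65 points as a mean over CpGs but 3.17 points when its reads were pooled, and 1.96 points without young replicate 3. The least covered sequences were NT_166443.1, at 0.51 and 0.50 times the autosomal mean in old and 0.46, 0.41 and 0.47 times in young libraries, NW_012132908.1 and NW_004058052.1. NT_166443.1 had 21 CpGs at 62.0% and 58.2% in old and 57.3%, 62.7% and 61.4% in young libraries, without a separation of the ages.

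In tiles of 1000 bp, the call required an adjusted p under 0.05 over all 136530 tiles and a difference of at least 10 points, and 0% of all tiles and 0 of the 533 outside tiles met it. An unadjusted p under 0.05 was reached by 30 outside tiles, or 5.63%, against 2.68% of all tiles. Of the 30, 26 were higher and 4 lower in old sperm, or 4.88% and 0.75% of the outside tiles, against 1.63% and 1.05% of all tiles. Outside tiles held more reads, with a median of 374 against 130 on the chromosomes, and 12 of the 30 lay on NT_166454.1, where old replicate 1 had its excess of reads. Groups did not overlap in 54 outside tiles higher and 19 lower in old, or 10.1% and 3.56%, against 9.24% and 7.75% of all tiles. In limma on log2 odds 0 outside tiles were called and 1 had an unadjusted p under 0.05, against 3.88% of all tiles. Without young replicate 3 there were 2 calls, at positions 22001 to 23000 of NT_166454.1 and 14001 to 15000 of NT_166474.1.

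The tile with the smallest p among those higher in old sperm was the first of NT_187064.1, at positions 1 to 1000. Its 7 CpGs, with at least 2401 reads in each library, stood at 85.1% and 84.5% in old and 81.9%, 81.6% and 81.3% in young libraries. The ages did not overlap, and the difference of 3.26 points was small (quasi-binomial model, unadjusted p = 0.000716, adjusted p = 1). The next 3 lay on NT_166291.1, NT_187056.1 and NT_166454.1, with differences of 9.27, 9.66 and 3.39 points. The 4 with the smallest p among those lower in old sperm all lay in the start part of NT_187064.1, with differences of -4.96, -4.96, -10.1 and -2.21 points. The third of these, at positions 58001 to 59000, had 30.9% and 37.2% in old and 45.6%, 38.2% and 48.7% in young libraries over 6 CpGs, and was the 1 outside tile called by a binomial model without a term for the spread between libraries, which called 0.269% of all tiles.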

How the data were processed

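Sperm DNA of 2 old and 3 young C57BL/6 libraries was measured by whole-genome bisulfite sequencing. The submitters' processing notes name methylKit 1.4.0, Bismark 0.16.3, Trim Galore 0.4.3 and the build GRCm38 (mm10). How duplicates and reads with several matches were handled is not given in the sources used here. Per the file headers, the deposited values are coverage as a count of reads per cytosine and strand and the percent of reads methylated and unmethylated. The authors' lists start at 5 reads, and percent times coverage gave whole reads for 100% of cytosines, within the rounding of the percent.

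Strands of a CpG were summed, and CpGs with 10 or more reads in all 5 libraries were kept, with no upper coverage limit, since the most covered sequences are members. Levels are unweighted means over CpGs. Library values were compared with exact permutation tests. Tiles of 1000 bp with at least 3 common CpGs and sequences with at least 5 were fitted, together with the chromosomes, by a quasi-binomial logistic model with dispersion moderated by limma 3.58.1 (R 4.3.3) and not under 1, and read shares by limma on the log2 share of reads, with Benjamini-Hochberg adjustment. Both were run on simulated data, but only with changes larger than the differences reported here. Those runs do not show how often differences of the reported size would be found. Figures were drawn with matplotlib 3.10.9, and the rest was computed with scipy 1.17.1, pandas 2.3.3 and numpy 2.4.6 under Python 3.11.15. A read covers several CpGs and copies of a repeat can share reads, so reads are not independent molecules.

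Members, named-sequence rules, marker lists and tests were chosen with earlier results of these data known. Named were the 6 sequences with the most common CpGs and, among those with at least 20, the 3 highest and lowest in methylation, in age difference and in coverage, and the 4 tiles with the smallest p in each direction; other sequences are named where a count of 5 or fewer, the 234-bp rule or a single alternative singled them out after their values were seen. Genes on these sequences and their letters were not analysed here. Of the other label checks, 2 of 8 germline gene starts, methylated in somatic cells, and 0 of 3 paternally imprinted starts, methylated in sperm, were measured. Ddx4, with at least 608 reads in each library, averaged 85.9%, and Tdrd1, with at least 30, averaged 19.4%. H19, of the paternally imprinted ones, was not among the annotated starts used. Alternatives covered coverage limits, averaging, the CpG set, tile width, thresholds, the model, the replicate number and leaving out each library; leaving out NT_166454.1, or NT_187064.1 with NT_039257.4, was added after seeing the data.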

Additional observations from a re-analysis of the deposited data

How the results depend on the processing

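Outside CpGs stayed below the chromosomes under every alternative run, from -35.0 to -15.1 points, and from -28.5 to -26.3 points with a library left out. The age differences in mean methylation, read share and partly methylated share, none of which passed a test, each changed sign under some alternative. Mean methylation, alone or relative to the chromosomes, did so only without young replicate 2. With a library left out the difference in mean methylation ran from -0.40 to 3.42 points, that relative to the chromosomes from -0.81 to 3.43 points, that in read share from -0.548 to 0.0278 percentage points and that in the partly methylated share from -1.70 to 1.30 points. The read share difference was 0.0383 percentage points with an upper coverage limit and 0.0704 without NT_187064.1 and NT_039257.4, and the partly methylated share differed by 0.0396 points at a coverage minimum of 20 reads. Calls without 1 library numbered 0 to 2 tiles and 0 to 4 sequences for read share, and the binomial model, which ignores the spread between libraries, called 1 tile, against 0.269% of all tiles, and 23 of the 46 outside sequences, against 65.7% of all 67 sequences and chromosomes. The cause of these changes was not tested.

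Deviations from the group means of same-numbered libraries correlated at 0.01 and -0.02 over outside CpGs. The deviations of the 2 old libraries mirror each other, so these values are not separate. They do not settle whether the replicate numbers pair the libraries. With the replicate number as a block the partly methylated share differed by 0.95 points, mean methylation by 3.42 points, and tiles and sequences called stayed at 0. In young replicate 3, which has no partner, the block leaves no information on age.

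Of 117 values for the 13 named sequences under alternatives, 91 kept their sign and 26 had the other sign, on 9 sequences. None had the other sign on NT_080256.1, NT_166291.1, NT_166454.1 and NW_004058052.1. At a coverage minimum of 20 reads the differences were -0.0244 points on NT_039257.4, -0.0704 points on NT_166299.2 and -0.0511 points on NT_166476.1. With the replicate block they were -0.41 points on NT_166299.2, 0.0795 points on NT_166443.1, -0.96 points on NW_004058053.1 and 1.96 points on NW_012132908.1. With a library left out they ran from -1.63 to 2.78 points on NT_039257.4, -0.41 to 0.58 on NT_166299.2, -2.22 to 1.49 on NT_166443.1, -2.33 to 0.0763 on NT_166450.1, -1.63 to 6.33 on NT_166467.1, -2.64 to 4.43 on NT_166476.1, -1.29 to 2.36 on NT_187064.1, -0.96 to 1.19 on NW_004058053.1 and -3.94 to 1.96 on NW_012132908.1. Depth did not limit the 2 most covered sequences, but reads piled from several copies cannot be assigned to 1 of them.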
